A study of Mus musculus with 24 samples.

Results

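The genes described here encode the protein machinery of mitochondrial respiration. They were taken by name from the array's annotation, as every gene whose symbol starts with Nduf, Sdh, Uqcr, Atp5 or Cox followed by a digit. A gene was included if at least 1 of its probes was detected, with a detection p under 0.05, on 6 or more of the 24 arrays, and it was represented by its brightest such probe. This gave 90 genes of the 100 with such a symbol on the array, out of 11439 named genes kept in the whole series. They comprised 33 subunits of complex I, 3 of complex II, 6 of complex III, 14 of complex IV and 15 of ATP synthase, together with 19 assembly factors. An entry among the complex I subunits, Ndufs5-ps, carries the symbol of a pseudogene. Cox11, detected on 7 arrays, was just inside the detection limit, and Ndufb11, detected on 5 arrays at most, was just outside it. The other genes left out were Atp5md, Cox16, Cox7b2, Cox8c, Ndufaf6, Ndufb4, Ndufs1, Sdha and Uqcrfs1.

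The mice were naive SJL/JOrlCrl animals aged 10 weeks, an inbred strain used in studies of brain autoimmunity. Cerebellum and frontal cortex were taken from each of 6 females and 6 males, which gave 4 groups of 6 Illumina MouseWG-6 v2 arrays. The labels also give each array an animal and a tag, here called label batch a (2 arrays per group) and label batch b (4 arrays per group), whose meaning is not stated. Between 18099 and 19927 of 45281 probes were detected per array, median signal ran from 69.29 to 75.17 intensity units, and the number of arrays limits the precision. The labelled tissues matched their markers. All 7 measured genes of a cerebellar granule and Purkinje cell list were higher in cerebellum, and 8 of 9 frontal cortex neuron markers were lower there.

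The respiratory chain passes electrons from NADH (complex I) or succinate (complex II) through complex III to complex IV, which reduces oxygen, and the proton gradient built on the way drives ATP synthase. Most of its subunits are encoded in the nucleus and are needed in fixed proportions in each complex. Several small subunits of complex IV, and the membrane ring subunit of ATP synthase, are encoded by more than 1 gene, and some of these isoforms have different tissue preferences. Neurons depend heavily on oxidative phosphorylation, and assembly factors put the complexes together without being part of the finished enzyme.

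Most respiratory chain genes differed little between cerebellum and frontal cortex, and a few complex IV isoforms differed a great deal. Averaged over the sexes, 63 of the 90 genes passed an adjusted p of 0.05, 50 higher and 13 lower in cerebellum (limma, Benjamini-Hochberg adjustment over 21113 probes). Of all probes tested, 67.8% passed, 36.8% higher and 31% lower, so the total for the respiratory chain genes was close to the background while the split between directions was not. The median log2 difference, cerebellum minus frontal cortex, was 0.17 over the 90 genes and 0.033 over all probes. Among the 63 genes, 56 differed by less than 1.5-fold. A difference over 1.5-fold was seen in 7.78% of these genes and in 27.1% of all probes. The arrays of the tissues did not overlap for 20 genes (22.2%), against 27.3% of all probes. In females 48 genes were higher and 11 lower (31.5% and 25.7% of all probes, 57.2% in all), and in males 38 were higher and 11 lower (31% and 27% of all probes, 58.1% in all). All 63 genes had the same sign within label batch a and within label batch b, in some cases narrowly (Atp5g2 at 0.0084 and 0.44). The genes were called on these same arrays, so this agreement is not independent support.

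The direction of the small differences depended on how the arrays were scaled. The values above come from quantile normalization, which gives every array the same distribution. When arrays were instead shifted to equal medians, 13 genes were higher and 28 lower (28.9% and 37.1% of all probes), and the median difference over the 90 genes was -0.076, against -0.042 over all probes. Cyclic loess gave 47 higher and 18 lower (33.5% and 34% of all probes), and the authors' deposited values gave 51 higher and 14 lower (36.5% and 30.8%). The genes called the same way under all 4 scalings numbered 13 higher and 13 lower. The share of all probes called the same way under all 4 was not computed, so these counts have no background to be read against. The higher ones were Cox6b2, Cox7a1, Uqcrq, Cox4i2, Cox8b, Ndufv3, Cox14, Ndufc2, Sdhaf1, Ndufa6, Uqcrh, Sdhc and Ndufa4. The lower ones were Cox6a2, Cox7a2l, Ndufaf1, Sdhaf3, Sdhb, Sdhaf4, Ndufaf8, Ndufaf7, Atp5d, Ndufaf2, Cox15, Ndufaf5 and Cox18. Bulk tissue cannot tell fewer cells of a type from less RNA per cell.

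**Figure D1:**
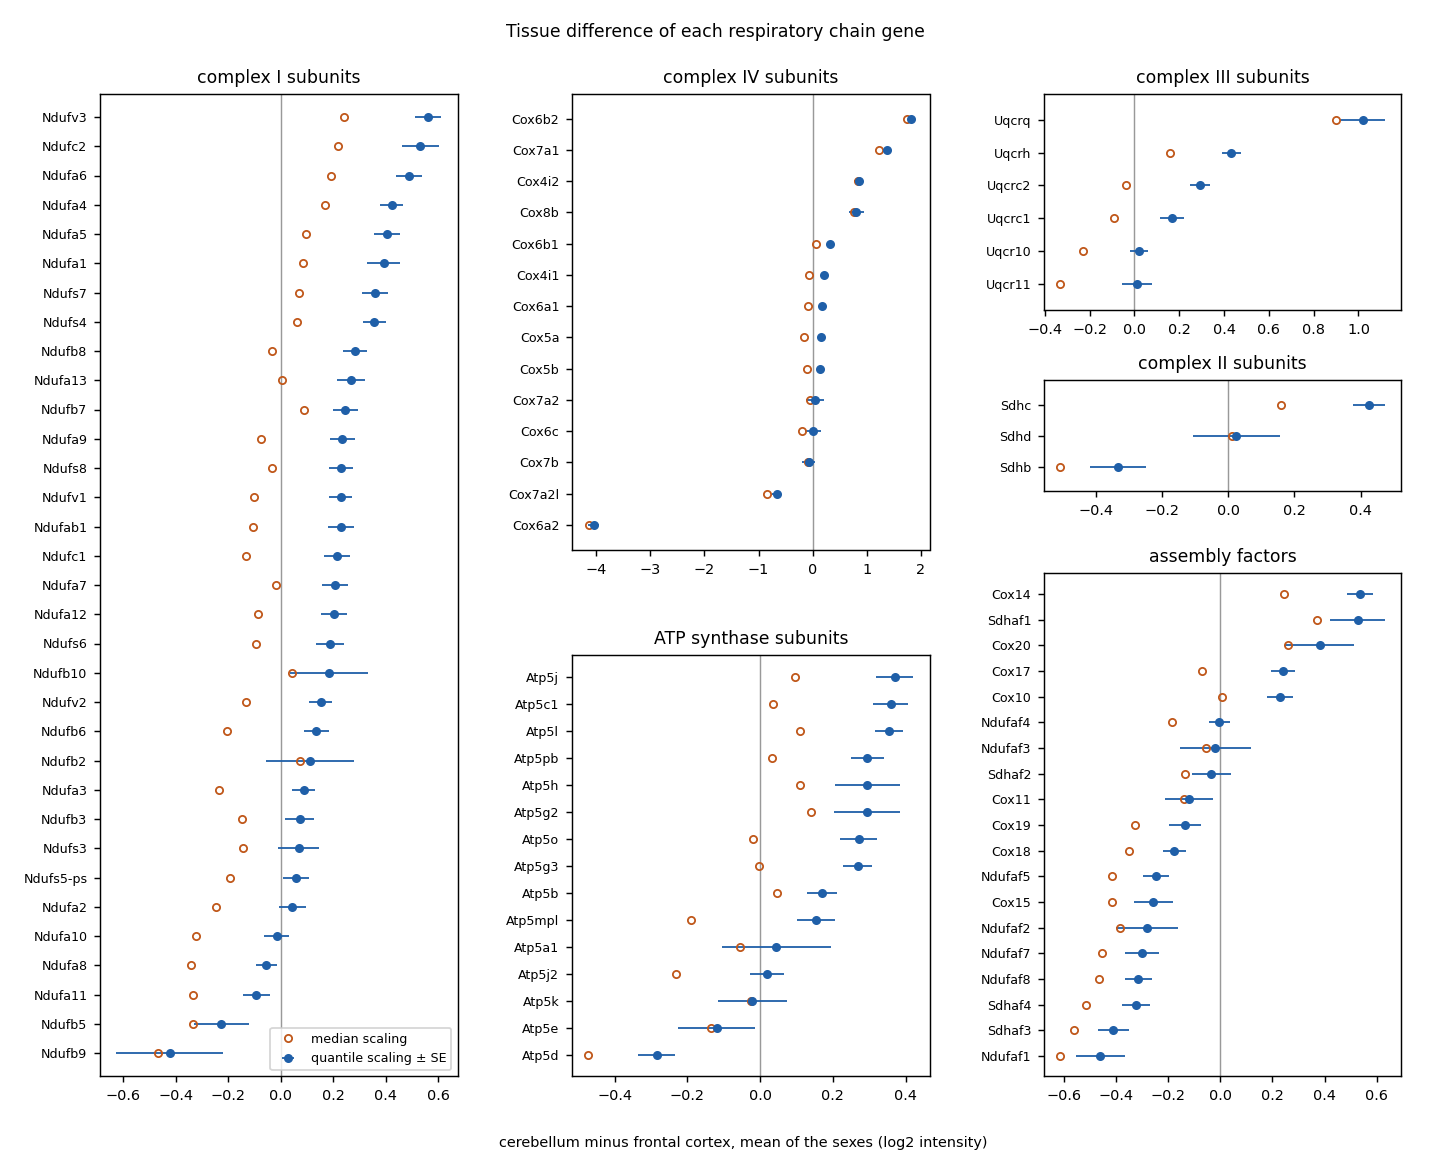
Log2 difference, cerebellum minus frontal cortex averaged over the sexes, for each of the 90 genes, grouped by complex with the assembly factors apart. Filled blue points are the quantile-normalized estimates with their standard error and open orange points the estimates after median scaling (n = 12 arrays per tissue). The panels have different horizontal ranges. Most subunits sit slightly right of 0 when quantile-normalized and move left under median scaling, while Cox6a2 at -4.05 and Cox6b2 at 1.82 hardly move.

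Complex IV held the widest spread, from -4.05 to 1.82, with 9 of its 14 subunits higher in cerebellum, 2 lower and 3 not past the threshold (36.8% and 31% of all probes). Under median scaling 4 were higher and 2 lower (28.9% and 37.1% of all probes). Cox6a2, the isoform of subunit 6a known from heart and skeletal muscle, was the most different of the 90 genes. Its lowest, median and highest log2 intensity were 4.31, 4.55 and 5.21 in female cerebellum, against 8.60, 8.82 and 8.96 in female frontal cortex. In males they were 4.49, 4.69 and 5.43 in cerebellum, against 8.64, 8.67 and 9.06 in frontal cortex. The tissues were far apart, with every cerebellum array below every frontal cortex array. Cox6a2 was detected on 4 of 12 cerebellum arrays and 12 of 12 frontal cortex arrays, so only a lower bound on the fold can be given, and it depended on the background correction. Cox6a2 was at least 15.1-fold lower in cerebellum after the correction used here (fitted log2 difference -4.05 ± 0.10 SE, adjusted p = 1.5e-22), at least 6.18-fold on the authors' values (fitted -2.70) and at least 5.29-fold without background correction (fitted -2.46). Of 6 measured skeletal muscle markers, Actn3, detected on 6 of 12 frontal cortex arrays, was higher in cerebellum (fitted 0.89). The bound for Actn3 was at least 1.81-fold, and at least 1.25-fold without background correction. Myl1 (-3.66) and Acta1 (-2.19) were lower in cerebellum and 3 did not pass, with a list median of -0.062. Tnnc1 (-3.74) and Myl2 (-0.24), the 2 measured heart or slow muscle markers, were lower too. Ckm, Myh1, Myh4, Tnnt3 and Casq1 were detected on 0 arrays, Tnni2 on 3 and Tnnc2 on 4, too few to be measured. From the heart or slow muscle list, Myh6 was detected on 5 arrays, Myh7 on 1 and Myl3, Tnni3 and Actc1 on 0. The mean level of the skeletal muscle list ran from 5.22 to 5.43 in female cerebellum and from 6.06 to 6.37 in female frontal cortex, and from 5.18 to 5.34 in male cerebellum and from 5.97 to 6.21 in male frontal cortex. Its part in the Cox6a2 difference was not tested. In mouse brain Cox6a2 is also known from parvalbumin interneurons. Of 6 measured markers on that list 3 were higher in cerebellum, 2 lower and 1 did not pass. Pvalb itself was at 2.76, Gad1 at 0.59 and Kcnc1 at 0.40, while Gad2 was at -0.65. Tac1, detected on 1 of 12 cerebellum arrays and 12 of 12 frontal cortex arrays, was at least 38.7-fold lower in cerebellum (at least 12.2-fold without background correction). The part of these cells was not tested.

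Cox6b2, known as the testis isoform of subunit 6b, differed in the opposite direction. It measured 6.86, 6.98 and 7.20 (lowest, median, highest) in female cerebellum, against 4.80, 5.05 and 5.12 in female frontal cortex. In males it measured 6.67, 6.71 and 6.80 in cerebellum, against 5.01, 5.06 and 5.22 in frontal cortex. No cerebellum array came near any frontal cortex array, and the fold was 3.52 (1.82 ± 0.05 SE, adjusted p = 2.7e-22). On the authors' values the log2 difference was 1.00, and without background correction it was 0.88, a 1.84-fold difference, both past the threshold. Cox7a1, the heart and skeletal muscle isoform of subunit 7a, showed the same pattern at a higher signal. Its values were 8.58, 8.89 and 9.01 in female cerebellum and 7.10, 7.31 and 7.42 in female frontal cortex, with 8.48, 8.52 and 8.63 in male cerebellum and 7.24, 7.31 and 7.49 in male frontal cortex. Every cerebellum array was again above every frontal cortex array (2.58-fold, 1.37 ± 0.05 SE, adjusted p = 3.5e-18).

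Cox4i2, the isoform of subunit 4 best known from lung, was detected on 12 of 12 cerebellum arrays and 4 of 12 frontal cortex arrays. It was at least 1.64-fold higher in cerebellum after the background correction used here (fitted 0.85 ± 0.08 SE, adjusted p = 2.9e-10). The bound was 1.24-fold on the authors' values (fitted 0.38) and 1.20-fold without background correction (fitted 0.31). Its range was 5.36 to 5.87 in female cerebellum and 4.53 to 4.98 in female frontal cortex, and 5.29 to 5.58 in male cerebellum and 4.32 to 5.09 in male frontal cortex, so the tissues did not overlap. Of 10 pericyte markers 2 were higher in cerebellum (Vtn 0.25, Kcnj8 0.19), 2 lower (Rgs5 -0.68, Cd248 -0.18) and 6 did not pass. The mean level of that list ran from 5.99 to 6.18 in female cerebellum and 6.04 to 6.22 in female frontal cortex, and from 6.01 to 6.09 in male cerebellum and 6.00 to 6.22 in male frontal cortex, and its part was not tested.

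Cox8b, the muscle isoform of subunit 8, measured 5.57, 5.97 and 6.89 in female cerebellum, against 4.49, 4.98 and 5.39 in female frontal cortex. The male values were 5.19, 5.55 and 5.85 in cerebellum and 4.74, 5.02 and 5.38 in frontal cortex. Cox8b was detected on 5 of 6 arrays in each frontal cortex group and on 6 of 6 in each cerebellum group. Its lowest frontal cortex values were near or below the dimmest detected level of the arrays, 4.67 to 4.81. The tissues overlapped (0.81 ± 0.14 SE, 1.75-fold, adjusted p = 8.3e-06), and the difference was 1.21 within label batch a and 0.60 within label batch b. It was 0.39 on the authors' values (1.31-fold) and 0.34 without background correction (1.26-fold), both past the threshold. Cox7a2l, a relative of Cox7a2 known for joining complexes III and IV into supercomplexes, was lower in cerebellum. It ranged from 9.41 to 9.87 in female cerebellum and from 10.04 to 10.37 in female frontal cortex, and from 8.84 to 9.74 in male cerebellum and from 10.04 to 10.40 in male frontal cortex. The ranges did not meet (-0.67 ± 0.08 SE, 1.59-fold, adjusted p = 3.4e-08).

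The common isoforms moved far less. Cox6b1 differed by 0.32 ± 0.04 SE (adjusted p = 2.3e-07), Cox4i1 by 0.20 ± 0.05 (0.00029) and Cox6a1 by 0.18 ± 0.05 (0.0013). Under median scaling Cox4i1 was at -0.072 and Cox6a1 at -0.076, neither past the threshold, and Cox6b1 was at 0.062 with an adjusted p of 0.28. Cox7a2 varied widely within every group, for example from 5.89 to 7.04 in female cerebellum and from 5.47 to 6.79 in female frontal cortex, and did not pass (0.042 ± 0.17, adjusted p = 0.84). Cox5a (0.16, adjusted p = 0.02) and Cox5b (0.14, 0.0045), which have no isoform partner here, were below the differences of the tissue-preferring isoforms, and under median scaling both fell on the other side of 0 (-0.16 and -0.11, neither past the threshold). The X-linked Cox7b was detected on 13 of 24 arrays and did not pass (-0.068, adjusted p = 0.64).

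**Figure D2:**
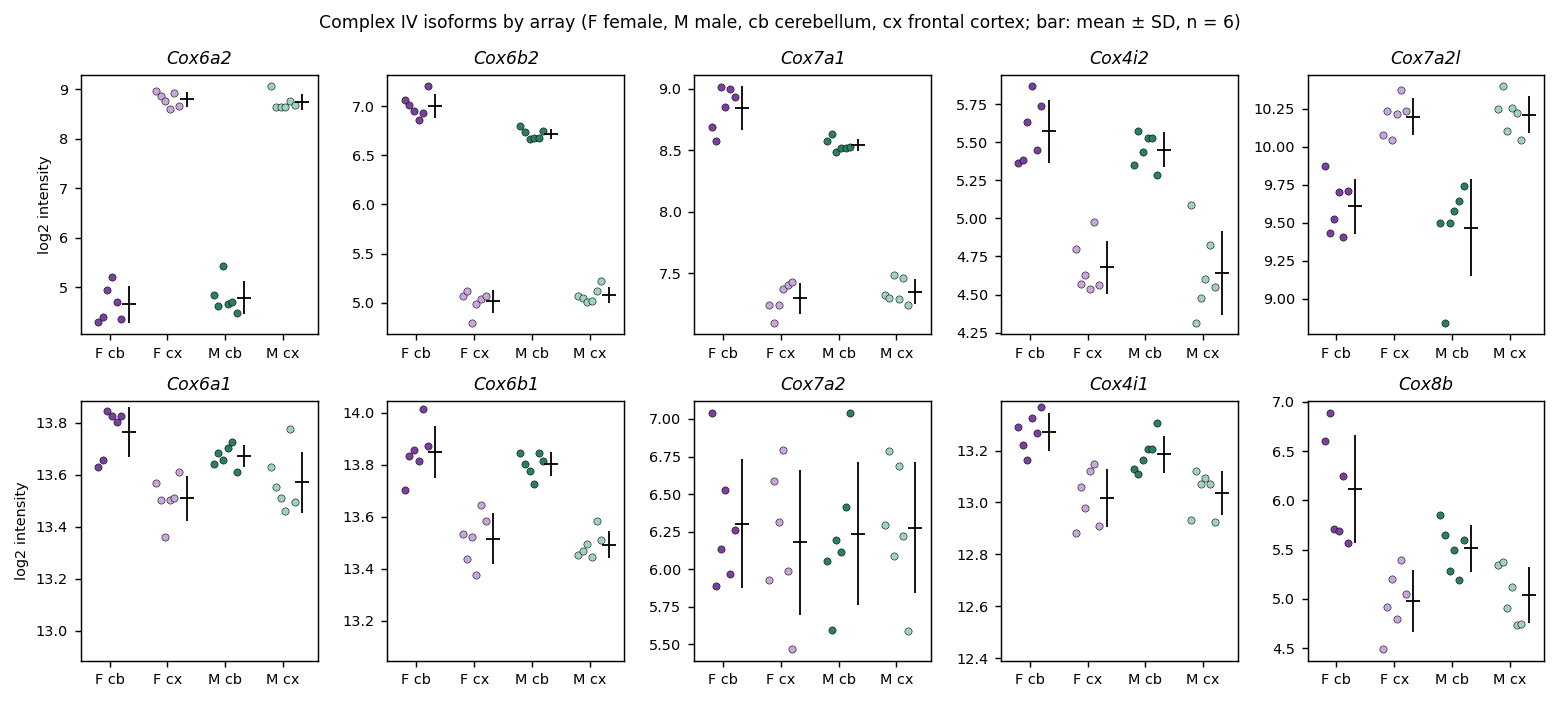
Log2 intensity of complex IV genes on each of the 24 arrays, with female cerebellum (F cb), female frontal cortex (F cx), male cerebellum (M cb) and male frontal cortex (M cx) from left to right. Points are arrays and the bar to their right is the mean ± SD (n = 6), and vertical ranges differ between panels. Cox6a2, Cox6b2, Cox7a1, Cox4i2 and Cox7a2l separate the tissues completely, whereas Cox7a2 does not separate them at all.

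Isoform pairs were also compared as ratios within each array. Such a ratio still depends on the processing, because background correction and quantile normalization act differently on a dim and a bright probe. Each pair was compared between the tissues of the 12 animals with an exact two-sided sign-flip permutation test, adjusted over 6 pairs. The Cox6a2/Cox6a1 ratio changed by -4.22 ± 0.39 (SD, n = 12) on the log2 scale, cerebellum minus frontal cortex, and was lower in 12 of 12 animals. With dim values raised to each array's dimmest detected level it was -4.10, so the ratio fell by at least that much under this processing. The Cox6b2/Cox6b1 ratio changed by 1.49 ± 0.22 and the Cox4i2/Cox4i1 ratio by 0.65 ± 0.37, both higher in 12 of 12 animals, and with dim values raised in the same way the change for Cox4i2/Cox4i1 was 0.51. The Cox7a2l/Cox7a2 ratio changed by -0.71 ± 0.53 and was lower in 12 of 12. For these 4 pairs the exact permutation p was 0.000488, the smallest that 12 animals allow (adjusted 0.000732). The Cox7a1/Cox7a2 ratio was higher in 11 of 12 animals (1.33 ± 0.80, exact p = 0.000977, adjusted 0.00117), with a lowest value of -0.16. Cox7a2 was dimmer than Cox7a1 on average in every group (mean log2 ratio 1.07 to 2.54), unlike Cox6a1, Cox6b1 and Cox4i1 beside their partners. How well its probe reports the transcript was not tested, which limits both ratios to Cox7a2. Atp5g2/Atp5g3, isoform genes of the membrane ring subunit of ATP synthase, gave 0.025 ± 0.37, higher in 6 of 12 (exact p = 0.822), with single animals between -0.85 and 0.63. The first 3 changes were smaller on the authors' values and without background correction. On the authors' values Cox6a2/Cox6a1 changed by -2.88, Cox6b2/Cox6b1 by 0.68 and Cox4i2/Cox4i1 by 0.17, all past the threshold (exact test, highest adjusted p = 0.0229). Without background correction they changed by -2.64, 0.56 and 0.11, and the last did not pass (exact test, adjusted p = 0.101).

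Of the 14 complex IV subunits, 5 are on chromosome 7, namely Cox6a2, Cox6b2, Cox6b1, Cox7a1 and Cox8b, and 10 of all 90 genes are on that chromosome. RefSeq promoters of build GRCm38.p6 were matched for 76 of the 90 genes. Cox6a2, Cox4i1 and Cox4i2 were among those without a match, so the windows below do not cover Cox6a2 or the Cox4 isoforms. The 250 bases before the transcription start are shown for the tissue-preferring Cox6b2, Cox7a1 and Cox8b and for the common Cox6b1 and Cox6a1, as examples of the isoform genes the comparison turns on. Capitals mark matches to GCATGCGC, a core of the NRF1 site (in Cox6a1 both strands match in overlapping positions), and to CCGGAAG, a core of the GABPA site, which reads CTTCCGG on the other strand. NRF1 and GABPA are transcription factors known to act at respiratory chain promoters. A match is a stretch of letters and says nothing of binding.
Cox6b2, chr7:4753095-4753344, minus strand: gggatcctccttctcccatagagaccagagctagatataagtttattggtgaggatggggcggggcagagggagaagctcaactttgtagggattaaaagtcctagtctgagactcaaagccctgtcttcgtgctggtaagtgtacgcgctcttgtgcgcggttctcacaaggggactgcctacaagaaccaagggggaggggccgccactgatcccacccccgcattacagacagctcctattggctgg
Cox7a1, chr7:30183921-30184170, plus strand: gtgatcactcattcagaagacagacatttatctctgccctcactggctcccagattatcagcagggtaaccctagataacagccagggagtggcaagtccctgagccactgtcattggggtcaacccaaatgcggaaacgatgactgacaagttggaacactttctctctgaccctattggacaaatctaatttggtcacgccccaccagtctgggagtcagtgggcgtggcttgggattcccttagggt
Cox8b, chr7:140900447-140900696, minus strand: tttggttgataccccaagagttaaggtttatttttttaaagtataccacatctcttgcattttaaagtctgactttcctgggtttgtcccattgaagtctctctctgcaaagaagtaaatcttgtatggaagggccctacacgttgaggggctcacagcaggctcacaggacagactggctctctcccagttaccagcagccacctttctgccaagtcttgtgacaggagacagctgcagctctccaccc
Cox6b1, chr7:30626115-30626364, minus strand: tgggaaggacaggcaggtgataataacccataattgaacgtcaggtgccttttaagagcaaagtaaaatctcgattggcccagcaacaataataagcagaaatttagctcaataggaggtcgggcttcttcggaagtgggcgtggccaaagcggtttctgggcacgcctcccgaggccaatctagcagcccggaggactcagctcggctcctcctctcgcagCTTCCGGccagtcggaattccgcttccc
Cox6a1, chr5:115348959-115349208, minus strand: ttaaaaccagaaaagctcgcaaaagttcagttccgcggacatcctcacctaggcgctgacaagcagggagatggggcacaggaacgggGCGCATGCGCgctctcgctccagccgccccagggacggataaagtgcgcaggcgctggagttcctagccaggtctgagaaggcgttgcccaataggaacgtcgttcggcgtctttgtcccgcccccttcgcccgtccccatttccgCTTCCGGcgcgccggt
Of these windows, that of Cox6a1 held 26 CpG dinucleotides and that of Cox6b1 14, while those of Cox6b2, Cox7a1 and Cox8b held 8, 4 and 1. Cox6a1 had the NRF1 letters at positions -162 and -160 from the start and the GABPA letters at -16, and Cox6b1 had the GABPA letters at -28. None of the other 3 windows held either motif. Cox6a1 and Cox6b1 were the only ones of the 10 matched complex IV subunit promoters with NRF1 or GABPA letters, and those of Cox5a, Cox5b, Cox7a2, Cox7a2l and Cox7b held none. Over all 81 promoters of the 76 genes, on both strands, the NRF1 letters were found in 11.1% and the GABPA letters in 22.2%, against 2.26% and 6.91% of all 32851 promoters. The YY1 letters AAGATGG were found in 2.47%, against 4.49% of all promoters. The median CpG number was 15 for these genes and 6 for all promoters.

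Complex I, the entry point for NADH, had 21 of 33 subunits higher in cerebellum, 0 lower and 12 not past the threshold (36.8% and 31% of all probes were higher and lower), with a median difference of 0.21. This was a scaling-dependent shift, since the median was -0.087 under median scaling and then 4 subunits were higher and 9 lower (28.9% and 37.1% of all probes). The 4 that were higher under every scaling were Ndufv3, Ndufc2, Ndufa6 and Ndufa4. Ndufv3, an accessory subunit of the NADH-binding arm, ranged from 12.35 to 12.69 in female cerebellum and from 11.82 to 12.16 in female frontal cortex, and from 12.40 to 12.63 in male cerebellum and from 11.86 to 12.07 in male frontal cortex. The tissues did not overlap (0.56 ± 0.05 SE, adjusted p = 1.6e-10), and 2 further probes of Ndufv3 were higher as well (0.58 and 0.26). Ndufc2 differed by 0.53 ± 0.07 SE (adjusted p = 1.6e-07) and Ndufa6 by 0.49 ± 0.05 (1.5e-09). Ndufa4, named for complex I and later assigned to complex IV, differed by 0.42 ± 0.04 (3.7e-09). The core subunits Ndufv1 (0.23, adjusted p = 5e-05) and Ndufv2 (0.15, 0.003) were higher when quantile-normalized. Under median scaling both fell on the other side of 0 (-0.10, not past the threshold, and -0.13, adjusted p = 0.035). The X-linked Ndufa1 was at 0.39 ± 0.06 (adjusted p = 4.4e-06), and under median scaling it was at 0.086 and did not pass.

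The complex I assembly factors leaned lower under either scaling. Of 7 measured, 5 were lower in cerebellum under every scaling and 0 were higher, with a median of -0.28 (-0.41 under median scaling). Of all probes 31% were lower and 36.8% higher when quantile-normalized, and 37.1% and 28.9% under median scaling. The share of all probes lower under every scaling was not computed. Ndufaf1, which helps build the membrane arm, measured 7.70, 7.84 and 8.17 (lowest, median, highest) in female cerebellum, against 7.84, 8.20 and 8.72 in female frontal cortex. In males it measured 7.26, 7.84 and 8.13 in cerebellum, against 8.18, 8.32 and 8.70 in frontal cortex. The females overlapped and the males did not (-0.46 ± 0.09 SE, adjusted p = 0.00011). Ndufaf7, a methyltransferase acting on a core subunit, fell by 0.30 (adjusted p = 0.00016), Ndufaf8 by 0.32 (5.4e-06) and Ndufaf5, a hydroxylase acting on a core subunit, by 0.25 (9.2e-05). Ndufaf2, a late factor, fell by 0.28 (adjusted p = 0.039), and with the animal as a block its adjusted p was 0.068. Ndufaf3 (-0.020) and Ndufaf4 (-0.0036) did not pass, although a dimmer probe of Ndufaf4 was higher (0.26, adjusted p = 0.00062). Among 19 assembly factors of the chain outside the name rule, 3 were higher, 5 lower and 11 not past the threshold (36.8% and 31% of all probes). The largest difference among them was that of Ttc19 of complex III (-1.03 ± 0.07 SE, adjusted p = 2e-13). Under median scaling 0 of the 19 were higher and 13 lower (28.9% and 37.1% of all probes).

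Complex II, which links the tricarboxylic acid cycle to the chain, had 3 measured subunits. Sdhc, a membrane anchor, was higher in cerebellum with ranges that did not overlap, 11.53 to 11.66 in female cerebellum against 10.94 to 11.25 in female frontal cortex, and 11.48 to 11.75 in male cerebellum against 11.03 to 11.33 in male frontal cortex (0.43 ± 0.05 SE, adjusted p = 1e-08). Sdhb, the iron-sulfur subunit, was lower (-0.33 ± 0.09 SE, adjusted p = 0.0012), with -0.33 on a dimmer probe and -2e-04 (adjusted p = 1) on the dimmest. Sdhd was detected on 10 of 24 arrays and did not pass (0.024, adjusted p = 0.88). The assembly factors were also split, with Sdhaf1 higher (0.53 ± 0.10, adjusted p = 7.4e-05) and Sdhaf3 (-0.41 ± 0.06, 1e-06) and Sdhaf4 (-0.32 ± 0.05, 5.7e-06) lower. Sdhaf1 and Sdhaf3 are both known to help insert iron-sulfur clusters into Sdhb.

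In complex III, 4 of 6 subunits were higher in cerebellum and 0 lower when quantile-normalized (36.8% and 31% of all probes). Under median scaling 2 were higher and 2 lower (28.9% and 37.1% of all probes), the lower ones being Uqcr10 (-0.23, adjusted p = 0.00014) and Uqcr11 (-0.33, 3e-04). Uqcrq, a small subunit next to cytochrome b, stood apart. It measured 6.79, 7.31 and 7.79 in female cerebellum, against 6.31, 6.53 and 6.82 in female frontal cortex, and 7.34, 7.61 and 8.07 in male cerebellum, against 6.05, 6.34 and 6.75 in male frontal cortex. The highest frontal cortex array of the females was just above the lowest cerebellum array, and the male arrays did not overlap (1.02 ± 0.10 SE, 2.03-fold, adjusted p = 9.1e-10). Uqcrh, the hinge subunit, was higher without overlap (0.43 ± 0.04, adjusted p = 1.2e-09). The core subunits Uqcrc2 (0.29, adjusted p = 1.1e-06) and Uqcrc1 (0.17, 0.0067) were higher when quantile-normalized and at -0.039 and -0.090 under median scaling.

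Among ATP synthase subunits 10 of 15 were higher in cerebellum, 1 was lower and 4 did not pass (36.8% and 31% of all probes), with a median of 0.27. Under median scaling, however, 0 were higher and 3 lower (28.9% and 37.1% of all probes), and the median was -0.0038. Atp5d, a subunit of the central stalk, was lower under every scaling (-0.28 ± 0.05 SE, adjusted p = 2.1e-05). Its female values ran from 10.16 to 10.50 in cerebellum and from 10.41 to 10.68 in frontal cortex, and its male values from 9.96 to 10.30 in cerebellum and from 10.36 to 10.66 in frontal cortex. Atp5l (0.35), Atp5c1 (0.36) and Atp5b, the catalytic beta subunit (0.17), were higher when quantile-normalized, and at 0.11, 0.035 and 0.046 under median scaling, none past the threshold. Atp5a1 did not pass on its brightest probe (0.045, adjusted p = 0.81) and was higher on a dimmer probe (0.69, adjusted p = 1.3e-08).

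The 8 assembly factors of complex IV were mixed, with 4 higher, 2 lower and 2 not past the threshold (36.8% and 31% of all probes). Under median scaling 1 was higher and 3 were lower (28.9% and 37.1% of all probes). Cox14, needed for synthesis of the mitochondrially encoded Cox1, was higher in cerebellum under every scaling (0.54 ± 0.05 SE, adjusted p = 2.2e-10) and its tissues did not overlap. Cox15, an enzyme of heme A synthesis (-0.26, adjusted p = 0.0035), and Cox18, which helps insert Cox2 into the membrane (-0.18, 0.0012), were lower under every scaling. Cox17, a copper chaperone, was at 0.24 (adjusted p = 2.8e-05) and at -0.069 under median scaling.

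Second probes gave a check on single-probe values. For 27 genes, 34 further kept probes were measured. Of these, 14 passed with the same sign as the brightest probe, 12 did not pass where the brightest did, 3 passed where it did not, and in 3 cases neither passed. The other 2 passed with the opposite sign, a dimmer Atp5j probe at -0.50 against 0.37 and a dimmer Atp5o probe at -0.37 against 0.27. Cox6a2, Cox6b2, Cox7a1, Cox4i2, Cox8b, Cox7a2l and Uqcrq had a single kept probe each.

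The mean deviation of each complex from its genes' 24-array means showed how the complexes varied by array on quantile-normalized values. Under median scaling the median differences were -0.087 for complex I, -0.065 for complex III, -0.074 for complex IV and -0.0038 for ATP synthase, so the separations below hold for quantile normalization. Complex III separated the tissues, with Uqcrq as the largest contributor. Its level ran from 0.065 to 0.24 in female cerebellum and from -0.21 to -0.084 in female frontal cortex, and from 0.10 to 0.20 in male cerebellum and from -0.21 to -0.079 in male frontal cortex. Without Uqcrq the mean tissue difference of the complex III subunits was 0.19 in place of 0.32. The ranges still did not meet within females (from 0.039 in cerebellum, up to 0.030 in frontal cortex) or within males (from 0.0037 in cerebellum, up to -0.051 in frontal cortex), but they overlapped across the sexes. Complex I ran from 0.0021 to 0.19 in female cerebellum and from -0.19 to -0.040 in female frontal cortex, but in males the ranges overlapped, -0.037 to 0.15 in cerebellum against -0.19 to -0.0032 in frontal cortex. ATP synthase behaved alike, with 0.038 to 0.21 in female cerebellum against -0.18 to -0.012 in female frontal cortex, and an overlap in males (-0.037 to 0.12 in cerebellum, -0.24 to 0.018 in frontal cortex). Complex IV and complex II overlapped in both sexes. For complex IV this rested on Cox6a2. Without it the mean tissue difference of the other 13 subunits was 0.40 in place of 0.080, and the ranges did not meet within females (0.18 to 0.40 in cerebellum, -0.35 to -0.098 in frontal cortex) or within males (-0.026 to 0.30 in cerebellum, -0.38 to -0.050 in frontal cortex). Those 13 still included Cox6b2 (1.82), Cox7a1 (1.37), Cox4i2 (0.85) and Cox8b (0.81), with Cox7a2l (-0.67) going the other way. These isoforms weigh on the mean of 0.40, while the median over all 14 subunits was 0.17. The same arrays were often the lowest in several complexes. Male cerebellum replicate 2 was lowest of its group in complexes I, II and IV, in ATP synthase and in the assembly factors, and male frontal cortex replicate 6 was lowest in the same 5 sets. Female cerebellum replicate 2 was lowest in complexes I and IV, ATP synthase and the assembly factors, and female frontal cortex replicate 1 in the same 4. The cause was not tested.

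**Figure D3:**
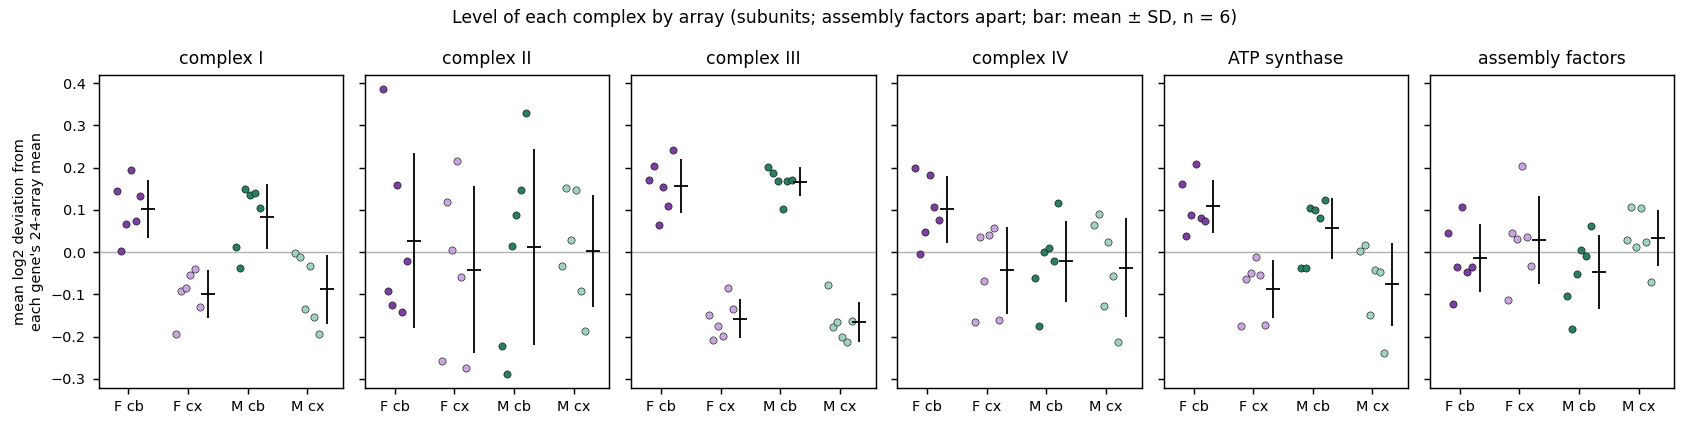
Mean log2 deviation of the subunits of each complex, and of the 19 assembly factors, from each gene's mean over 24 arrays, after quantile normalization. Points are arrays of female cerebellum (F cb), female frontal cortex (F cx), male cerebellum (M cb) and male frontal cortex (M cx), and bars are the mean ± SD (n = 6). Complex III is the panel in which every cerebellum array lies above every frontal cortex array, from 0.065 upwards against -0.079 downwards.

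The sexes were compared within each tissue. No respiratory chain gene passed in cerebellum, frontal cortex or the difference between these (0 of 90 in limma). Of all probes 0.156% passed in cerebellum (0.0521% higher and 0.104% lower in females), 0.171% in frontal cortex (0.104% and 0.0663%) and 0.109% for the difference (0.0189% and 0.09%). At an unadjusted p under 0.05 there were 7, 2 and 6 of the 90 genes, where 5.63%, 9.24% and 7.18% of all probes had such a p. In cerebellum 6 of the 7 were higher in females (3.03% of all probes) and 1, Uqcrq, was lower (-0.30, adjusted p = 0.87), as were 2.6% of all probes. Cox6b2 had the lowest adjusted p, with 6.86 to 7.20 in females and 6.67 to 6.80 in males, ranges that did not overlap (female minus male 0.29 ± 0.07 SE, adjusted p = 0.11). Across the alternatives it passed under 5, without background correction (0.18, adjusted p = 0.02), with normexp (0.20, 0.038), on the authors' values (0.20, 0.035), without a filter on dim probes (0.29, 0.044) and with array weights (0.31, 0.036). Cox7a1 ran from 8.58 to 9.01 in females and from 8.48 to 8.63 in males, which overlapped (0.30 ± 0.08 SE, adjusted p = 0.22). It passed with array weights (0.33, adjusted p = 0.047), in label batch b alone (0.44, 0.014) and without female cerebellum replicate 2 (0.35, 0.045). The last 2 of these fits leave out female arrays with the lowest Cox7a1, which raises the female mean by itself. Ndufaf8 (0.26, adjusted p = 0.32), Atp5d (0.25, 0.38), Cox8b (0.60, 0.52) and Cox14 (0.16, 0.83) completed the 6. Between the sexes 0 of 12 isoform ratios passed an exact permutation test, the lowest being Cox6b2/Cox6b1 in cerebellum (female minus male 0.24, exact p = 0.0108, adjusted 0.13).

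Choroid plexus, the tissue that secretes cerebrospinal fluid, was present to different extents on the cerebellum arrays. Of its 6 measured markers 4 were higher in cerebellum, 0 lower and 2 not past the threshold, and Sostdc1 was detected on 5 arrays and not measured. Ttr, detected on 6 of 12 frontal cortex arrays, was at least 41.6-fold higher in cerebellum (fitted 5.49), and at least 15-fold without background correction. The mean marker level ran from 5.77 to 8.61 in female cerebellum and from 4.62 to 5.18 in female frontal cortex, and from 5.44 to 7.50 in male cerebellum and from 4.96 to 5.59 in male frontal cortex. Female cerebellum replicates 2 and 1 were the highest, at 8.61 and 7.90. Both belong to label batch a, and these arrays also had the highest Cox8b, 6.89 and 6.60. Without them the tissue difference of Cox8b was 0.65 (adjusted p = 2e-05), against 0.81 with them. Leaving out the 2 highest cerebellum arrays lowers it by itself, so the fall says nothing of choroid plexus. The sex difference of Cox8b in cerebellum was 1.00 within label batch a and 0.41 within label batch b. Cox7a1 was lowest of the female cerebellum arrays on the same 2, at 8.58 and 8.69. Without them its tissue difference was 1.42 and its sex difference in cerebellum passed (0.41, adjusted p = 0.011). Leaving out the 2 lowest female arrays raises the female mean of Cox7a1 by itself, so that call adds no support for a sex difference. Without these arrays the tissue difference of Cox6b2 was 1.81 (1.82 with them) and that of Uqcrq 0.92 (1.02 with them). The part of choroid plexus in the Cox8b difference was not tested.

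**Figure D4:**
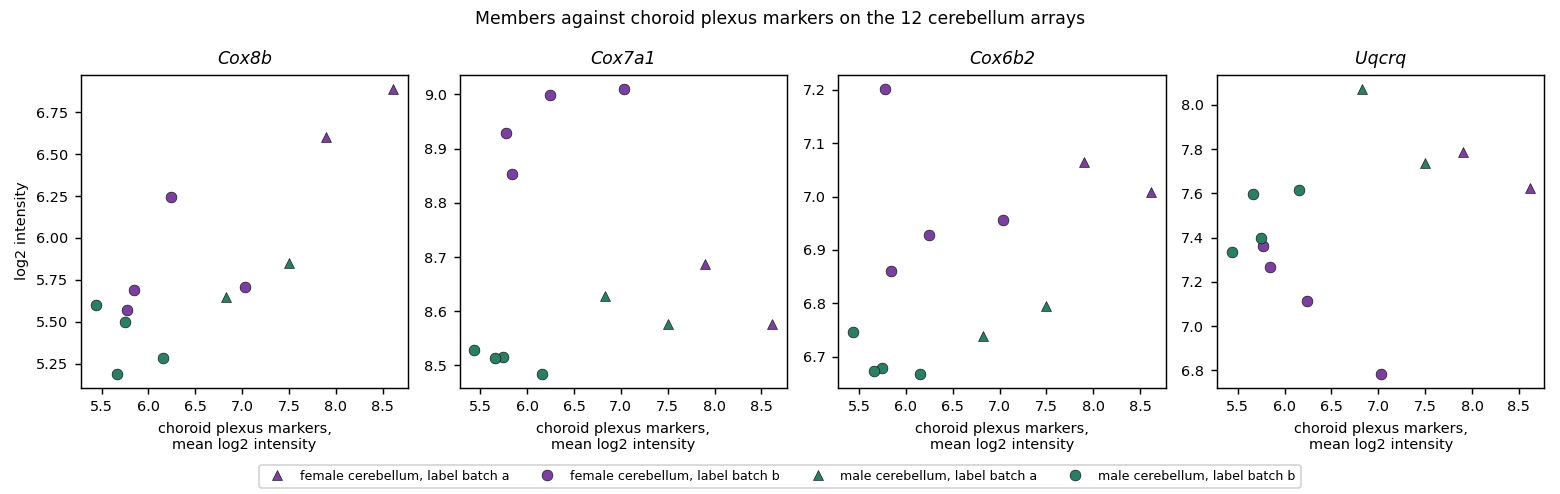
Log2 intensity of Cox8b, Cox7a1, Cox6b2 and Uqcrq against the mean log2 intensity of 6 choroid plexus markers on the 12 cerebellum arrays. Purple points are females and green points males, with triangles for label batch a and circles for label batch b. The 2 female arrays with the highest markers, 7.90 and 8.61, are highest for Cox8b and the lowest of the females for Cox7a1.

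Between the label batches a single respiratory chain gene passed. Uqcrq was lower in label batch b than in label batch a (-0.39 ± 0.08 SE, adjusted p = 0.033), where 0.194% of all probes passed (0.114% higher and 0.0805% lower), and the call was lost under median scaling, without the filter on dim probes, with array weights and in 7 of the fits that left out 1 array. The arrays left out in these 7 were male frontal cortex replicates 1 and 5, female frontal cortex replicates 1 and 5, male cerebellum replicate 2 and female cerebellum replicates 2 and 4, each in turn. The tissue difference of Uqcrq was 1.16 within label batch a and 0.95 within label batch b.

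Related gene lists gave the setting, to be read against 36.8% of all probes higher and 31% lower. Of 15 measured genes of the tricarboxylic acid cycle and pyruvate dehydrogenase 8 were higher in cerebellum, 4 lower and 3 not past the threshold (median 0.13), with Idh3g at 0.53 ± 0.04 SE (adjusted p = 3.5e-12). Of 8 further chain genes 6 were higher and 1 lower, among them the electron carrier Cycs (0.36) and Etfa (0.75), and the ATP synthase inhibitor Atpif1 was the lower one (-0.42 ± 0.05, adjusted p = 6.5e-09). Among 14 regulators of mitochondrial genes 9 were higher and 1 lower (median 0.23). The coactivator Ppargc1b was at 1.58 ± 0.06 SE (adjusted p = 3.5e-18), Nrf1 at 0.83, the mitochondrial RNA polymerase Polrmt at 0.70 and Esrra at 0.63. Of 7 probes named for genes of the mitochondrial DNA 0 passed in either direction (limma, median -0.017). Of 14 glycolysis genes 4 were higher and 6 lower, with Aldoc at 1.10 and Ldha at -1.23. Carriers and porins gave 2 higher and 3 lower of 9, and import genes 4 higher and 5 lower of 14. Under median scaling, with 28.9% of all probes higher and 37.1% lower, the counts were 3 higher and 5 lower for the tricarboxylic acid cycle, 8 and 2 for the regulators, 1 and 1 for the further chain genes, 2 and 10 for glycolysis, 0 and 5 for carriers and porins, 1 and 8 for import and 0 and 2 for mitochondrial DNA. Among cell type lists, microglia markers were lower in 7 of 7 (median -1.21), oligodendrocyte markers higher in 6 of 7 (0.43) and red cell genes higher in 5 of 5 (0.79). Others were mixed or mostly not past the threshold, with astrocyte markers 5 higher and 2 lower of 8, general neuron markers 3 and 2 of 5, endothelial markers 3 and 0 of 8 and smooth muscle markers 0 of 3 in either direction (limma). Under median scaling oligodendrocyte markers were 3 higher and 1 lower (median 0.23), microglia markers 0 and 7 (-1.29) and red cell genes 5 and 0 (0.50). Astrocyte markers were then 4 and 3, general neuron markers 2 and 3, endothelial markers 2 and 0 and smooth muscle markers 0 and 1. The part of tissue composition in the respiratory chain differences was not tested.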

How the data were processed

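Total RNA of cerebellum and frontal cortex from 12 mice was amplified, labelled with biotin and hybridised to bead arrays, per the labels. The deposited scanner table gives, per the file headers, the intensity, the bead standard error of that signal, the bead number (an other value) and the detection p-value of every probe. A further deposited table holds the authors' intensity values on a linear scale. Partek is named in the submitters' processing notes, without role or version.

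Scanner intensity was background-corrected and quantile-normalized with neqc (limma 3.58.1, R 4.3.3), with an offset of 16 and negative controls inferred through the detection p-values, and analysed as log2. The packages data.table (version 1.17.8) and statmod 1.5.0 were also used. Kept probes, 21113 of 45281, had a detection p under 0.05 on 6 or more arrays. Symbols were updated by Entrez ID for 34807 of 34885 probes with 1 symbol. Group means were fitted to all 24 arrays with lmFit and eBayes (20 residual and 5.82 prior degrees of freedom) with Benjamini-Hochberg adjustment over all kept probes. The fit and the permutation tests were tested on simulated data. Lower bounds on a fold use each array's dimmest detected level.

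Both tissues of an animal are paired by the animal in the labels. Deviations from the group means within animals correlated at -0.30 to 0.24, over 0.1 in 5 of 12 animals (consensus -0.016), and the main fit holds no animal term. The members, the gene lists and the tests were chosen with earlier results of these data known. Any of the 90 genes could be named, and from other lists up to 4 genes with the lowest adjusted p, plus marker genes counted there. The alternatives were other background corrections, scalings, filters, probe summaries and variance models, the label batch, the animal or runs of 6 neighbouring scanner columns as a block, and each array left out. Leaving out female cerebellum replicates 1 and 2 together, raising dim values to the dimmest detected level, median scaling of the other lists and complex levels without 1 gene were chosen after seeing the data.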

Additional observations from a re-analysis of the deposited data

Results flagged for a closer look

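For each of the 90 genes and each set of subunits, an array was marked when its gap to the nearest other array of its group was large against the range of that group by Dixon's test. This marked 19 of 384 groups of values, or 4.95%, where chance marks about 1 in 20. In female cerebellum Cox5b was high on replicate 6 at a log2 intensity of 13.69, and Ndufs7 (11.73), Ndufs8 (11.24) and Sdhaf3 (7.41) were low on replicate 2. In male cerebellum Cox7a2l (8.84), Ndufa1 (12.01) and Uqcr11 (12.20) were low on replicate 2, Atp5c1 was low (12.69) and Ndufa13 high (13.58) on replicate 6, and Cox6a2 was high on replicate 3 (5.43). The complex III level was low on male cerebellum replicate 4 (0.10). In female frontal cortex Atp5pb was high on replicate 5 (11.42). In male frontal cortex replicate 5 was high for Atp5c1 (12.74) and Cox10 (10.81) and low for Sdhaf2 (6.49), replicate 1 was high for Atp5g2 (8.94), Cox6a2 (9.06) and the complex III level (-0.079), and replicate 3 was high for Cox5b (13.54). Both Cox6a2 arrays lie on their own tissue's side of the gap between the tissues.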

How the results depend on the processing

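Of 506 comparisons of the 38 summary values with an alternative that kept all arrays or 1 label batch, 473 kept their direction and side of the threshold, or for counts and medians stayed close, and of 912 with a single array left out, 902. Of 1518 single-gene tissue differences under alternatives, 55 lost the threshold, 29 gained it and 31 reversed. A reversal is a change of sign where at least 1 of the fits compared passed the threshold. Median scaling was the main exception. It gave 13 genes higher and 28 lower by tissue in the mean, 9 and 24 in females and 8 and 24 in males, and 0 lower by label batch, with medians of -0.087 for complex I, -0.065 for complex III, -0.074 for complex IV, -0.0038 for ATP synthase and -0.33 for the assembly factors. The median over all probes moved to -0.042, against 0.033. The cause was not tested. Under it 32 genes changed sign, 5 of which passed the threshold under neither scaling (Atp5a1, Cox6c, Cox7a2, Ndufb3 and Ndufs3). The other 27, which passed under at least 1 of the scalings, were Atp5g3 -0.0038, Atp5j2 -0.23, Atp5mpl -0.19, Atp5o -0.019, Cox17 -0.069, Cox4i1 -0.072, Cox5a -0.16, Cox5b -0.11, Cox6a1 -0.076, Ndufa12 -0.087, Ndufa2 -0.25, Ndufa3 -0.24, Ndufa7 -0.019, Ndufa9 -0.075, Ndufab1 -0.11, Ndufb6 -0.20, Ndufb8 -0.035, Ndufc1 -0.13, Ndufs5-ps -0.19, Ndufs6 -0.095, Ndufs8 -0.032, Ndufv1 -0.10, Ndufv2 -0.13, Uqcr10 -0.23, Uqcr11 -0.33, Uqcrc1 -0.090 and Uqcrc2 -0.039. Of these 27, 3 passed under both scalings, namely Atp5mpl, Ndufb6 and Ndufv2. With the mean of all kept probes of a gene, Atp5j (-0.065), Atp5o (-0.052), Ndufaf4 (0.13) and Ndufb6 (-0.052) reversed. Of these only Ndufaf4 passed the threshold with that mean.

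Genes higher in females in cerebellum numbered 1 without background correction, with normexp, on the authors' values, without a filter on dim probes, in label batch b alone and without female cerebellum replicates 1 and 2, and 2 with array weights. Genes lower by label batch numbered 0 without a filter and with array weights. Label batch a alone, with fewer arrays, gave 24 genes higher in the mean, 18 higher and 2 lower in females, 9 higher in males and an ATP synthase median of 0.13, and its 4 animals allow no exact p under 0.125, so its ratio changes could not pass: Cox4i2/Cox4i1 0.54, Cox6a2/Cox6a1 -4.43, Cox6b2/Cox6b1 1.502, Cox7a1/Cox7a2 1.63 and Cox7a2l/Cox7a2 -0.58. Without background correction Cox4i2/Cox4i1 was 0.11. Without female cerebellum replicates 1 and 2, 7 genes were lower in females.

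With 1 array left out, genes lower in females ran from 7 to 12 (7 without female frontal cortex replicate 4), genes higher in females in cerebellum from 0 to 1, genes lower by label batch from 0 to 1, and the sex difference of Cox6b2/Cox6b1 in cerebellum from 0.20 to 0.29 (lowest exact adjusted p = 0.026). With the animal as a replicate block the tissue counts were 50 higher and 12 lower in the mean, 46 and 9 in females and 35 and 11 in males, and among named genes it changed the call of Ndufaf2. Dim probes limit, among others, Cox7b, Cox11, Sdhd and Atp5k, as well as Cox4i2 and Cox8b in frontal cortex and Cox6a2 in cerebellum. Values below the dimmest detected level of 4.67 to 4.81 have no order.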
